A study of Mus musculus with 12 samples.

Results

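The Jak-Stat receptors and Socs feedback genes examined here are 9 mouse genes: the cytokine receptor chains Osmr, Il6ra and Il6st, the transcription factor Stat3, the feedback inhibitors Socs1, Socs2, Socs3 and Cish, and the kinase gene Pim1. They were taken by symbol from 55573 gene identifiers, each symbol matching 1 Ensembl identifier on GRCm38. The RNA came from the extensor digitorum longus (EDL), a fast hindlimb muscle, of C57BL/6 mice, and the labels give no age, sex, treatment or genetic change. There were 12 libraries, 3 each of single myofibers, of pools with 5 or with 20 myofibers, and of whole muscle. The SMART-Seq HT kit, which amplifies full-length cDNA of small RNA amounts, was used throughout. By the labels' protocol a single myofiber was lysed straight in buffer of that kit, while Trizol was used for whole muscle, so isolation and extraction cannot be told apart in that contrast. The protocol makes no separate statement for the pools. No label names an animal, so a p-value here reflects how far libraries of a group lie apart, which may be technical.

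Cytokines of the interleukin-6 family act by joining receptor chains at the cell surface. Il6st encodes gp130, the signalling chain the family shares, Il6ra the chain that binds interleukin-6, and Osmr the chain that joins gp130 to receive oncostatin M. Jak kinases bound to these chains phosphorylate Stat3, which enters the nucleus and switches on genes that include Socs3 and Pim1. Socs3 binds gp130 and the Jak kinases and ends the signal, while Socs2 and Cish are known above all as Stat5 targets that restrain growth hormone and related signals, and Socs1 restrains Jak kinases, chiefly after interferons. Pim1 is a kinase known for promoting cell survival and growth. In skeletal muscle the pathway is known for its part in the response to exercise and injury and in muscle wasting.

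Totals of counted reads ran between 4702823 and 27787120 per library. Scaling factors of edgeR's TMM method, which set libraries to a common scale, were 0.522 to 2.95 in fiber libraries and 1.42 to 1.60 in whole muscle. CPM values are reads scaled by the total after TMM, and RPM values are reads scaled by the plain total. Of 1506 olfactory, vomeronasal and taste receptor genes, taken as a measure of background reads, 4.58% to 97.3% had a read in fiber libraries and 2.32% to 4.85% in whole muscle. The share was over 50% in 5-fiber pools 1 and 2 and in all pools of 20, reaching 97.3% in 20-fiber pool 2. A gene is said to lie within the background where its CPM per kilobase of exon did not exceed the 99th percentile over those receptor genes, library by library. The 10 muscle fiber markers, led in whole muscle by the actin Acta1 and the myosin light chain Mylpf, had reads in every library and summed to 19420 to 351000 CPM in fiber libraries and 87890 to 115800 CPM in whole muscle. Endothelial markers, led by Fabp4 and Egfl7, summed to 2.40 to 709 CPM in fibers and 907 to 1081 CPM in whole muscle, and 11 of 12 were lower in fibers. Fibroblast markers, led by Col3a1 and Gsn, summed to 12.2 to 618 CPM in fibers and 4192 to 4697 CPM in whole muscle, and 10 of 10 were lower. Macrophage markers, led by Lyz2 and Cd74, summed to 21.0 to 285 CPM in fibers and 453 to 508 CPM in whole muscle, and 8 of 12 were lower. The highest fiber sum, in single fiber 3, came from few markers, with 7 of 12 at 0, Lyz2 and Cd74 among them. Of all genes tested 7.78% were lower in isolated fibers.

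The feedback genes Socs3 and Socs2 and the kinase gene Pim1 were higher in isolated fibers than in whole muscle, Socs2 by the smallest margin. The contrast of isolated fibers, each fiber group weighing alike on the log2 scale, with whole muscle asks how dissected fibers differ from the tissue they came from. In it 3 of 9 genes rose and 0 fell at an adjusted p under 0.05 (edgeR's quasi-likelihood test, adjusted over all 22110 genes tested), where 7.46% of all genes tested rose. On the log2 scale Pim1 rose by 3.61 (SE 0.69, adjusted p = 0.00237), Socs3 by 3.08 (SE 0.61, adjusted p = 0.00298) and Socs2 by 1.58 (SE 0.45, adjusted p = 0.0268). The other 6 genes did not pass. Stat3 was at 1.47 (SE 0.56, adjusted p = 0.0738), Osmr at 1.03 (SE 0.72, adjusted p = 0.348) and Cish at 0.96 (SE 0.46, adjusted p = 0.147). Socs1 was at 0.50 (SE 0.56, adjusted p = 0.612), Il6ra at 0.22 (SE 0.78, adjusted p = 0.948) and Il6st at 0.12 (SE 0.46, adjusted p = 0.966). The median of the 9 genes was 1.03, where that of all genes tested was 0.40, and each value is to be read against that shift. The calls of Socs3 and Pim1 held under all 21 alternatives tried, while that of Socs2 was lost under 12 of them, among them leaving out any one whole muscle library (adjusted p = 0.159 to 0.187). A setting among the 21 left out the 2 fiber libraries closest to whole muscle, a choice that favors a difference.

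**Figure D1:**
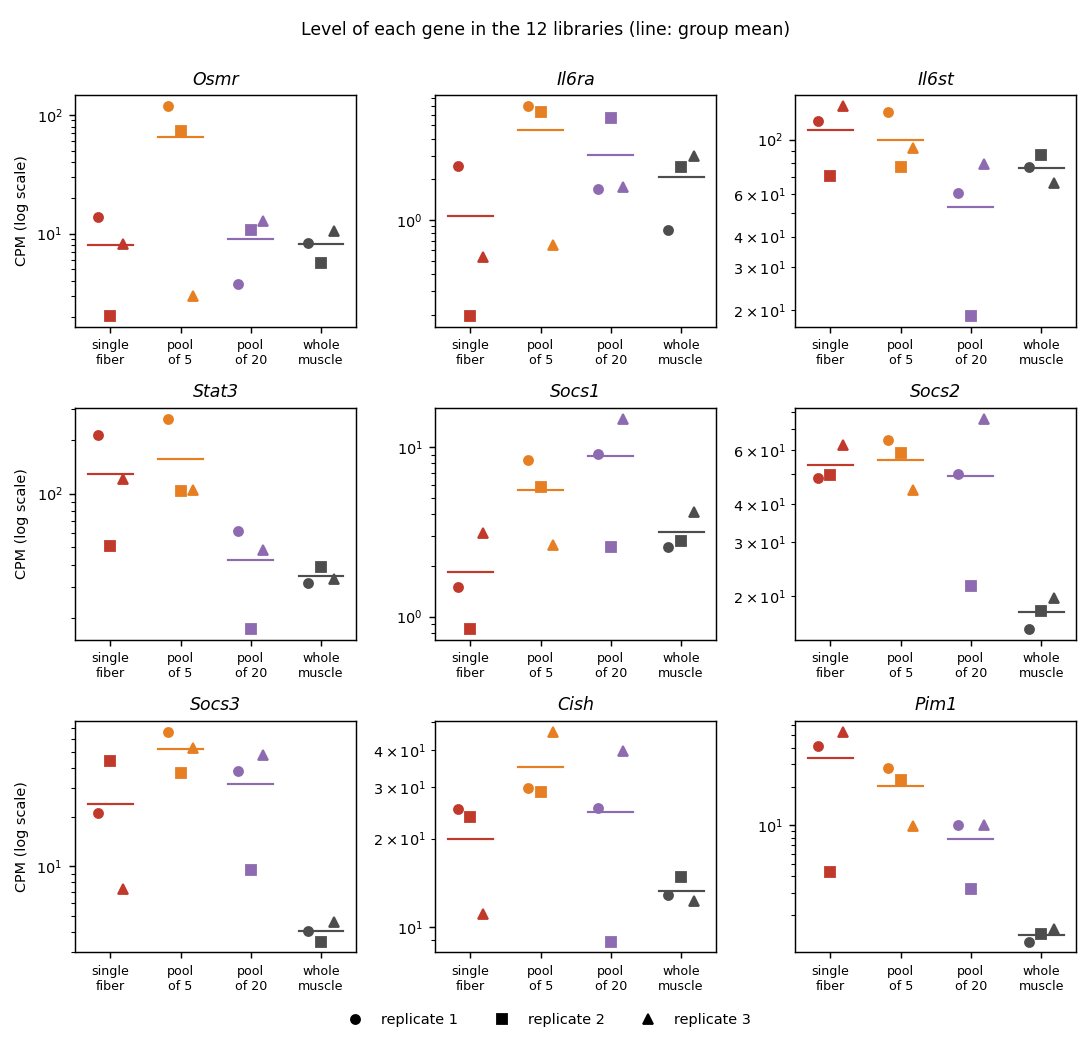
Level of each gene in CPM (log axis) in the 12 libraries, by group, with symbols for replicates and a line at the group mean. Every fiber library lies above the 3 whole muscle libraries for Socs2, Socs3 and Pim1, while Osmr runs between 2.96 and 119.6 CPM among the pools of 5.

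In CPM, all 9 fiber libraries lay above all 3 whole muscle libraries for 3 of the 9 genes, Socs2, Socs3 and Pim1, a pattern that 3.22% of all genes tested had. Scaling by total reads alone, an alternative chosen after the TMM factors had been seen, lowered each of the 9 log2 fold changes of isolated fibers and put the median of all genes at -0.30, against 0.40 with TMM, 0.56 with relative log expression (RLE) factors and 0.69 with upper-quartile factors. In RPM the 9 fiber libraries still lay above whole muscle for Pim1, 8 of 9 did for Socs3 and 7 of 9 for Socs2. Among all called genes the share that was higher in fibers was 12.5% with total reads, 49.0% with TMM, 65.1% with upper-quartile factors and 71.7% with DESeq2. The log2 fold changes were then 2.88 for Pim1 (adjusted p = 0.00624), 2.21 for Socs3 (adjusted p = 0.00176) and 0.82 for Socs2 (adjusted p = 0.0854).

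**Figure D2:**
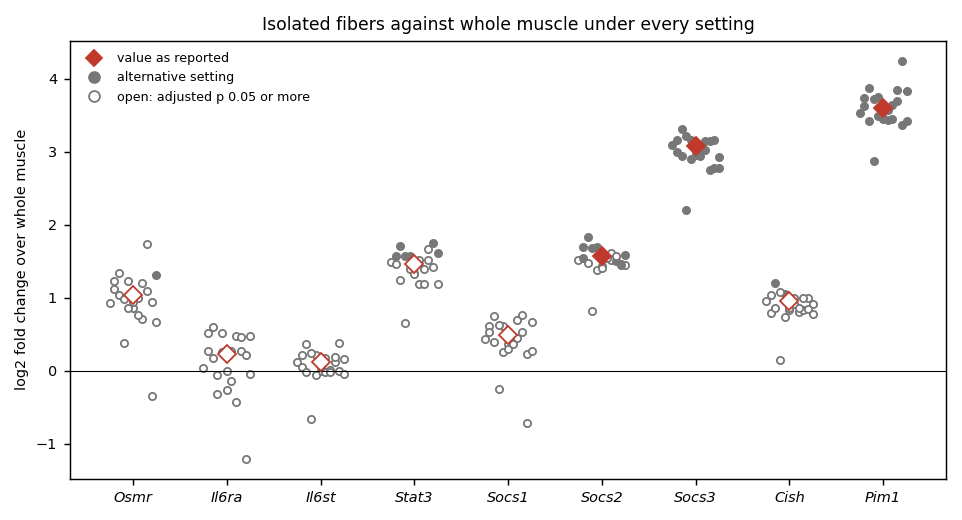
Log2 fold change of isolated fibers over whole muscle for each gene, as reported (diamonds) and under 21 alternative settings (circles), filled where the adjusted p was under 0.05. Socs3 and Pim1 are filled throughout; the lowest point of each, 2.21 and 2.88, is the one scaled by total reads.

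Of the receptor chains, the shared chain Il6st was carried by every library and did not separate fibers from whole muscle. Il6st (ENSMUSG00000021756, chromosome 13, 112464070 to 112510086, plus strand) was at 119.6, 71.0 and 137.5 CPM in single fibers 1 to 3, at 129.6, 77.4 and 92.4 CPM in the pools of 5 and at 60.1, 18.9 and 79.2 CPM in the pools of 20. Whole muscle libraries were at 77.3, 86.3 and 66.4 CPM. The groups overlapped, with 4 fiber libraries above and 2 below all whole muscle libraries. On the RPM scale 0 of 9 fiber libraries lay above and 7 lay below, so the side on which Il6st fell depended on the scaling, and with total reads its log2 fold change was -0.67 (adjusted p = 0.153). In whole muscle Il6st had the highest level per kilobase of the 9 genes, 6.91 ± 0.900 CPM per kb (SD, n = 3), and in each fiber group it ranked 3 of 9.

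The interleukin-6 binding chain Il6ra was the scarcest of the 9 genes per kilobase in every group. Il6ra (ENSMUSG00000027947, chromosome 3, 89864059 to 89913196, minus strand) had 30, 3 and 6 reads in single fibers 1 to 3, which gave 2.50, 0.195 and 0.535 CPM. It was at 6.98, 6.26 and 0.658 CPM in the pools of 5, at 1.71, 5.69 and 1.75 CPM in the pools of 20 and at 0.852, 2.46 and 2.97 CPM in whole muscle. No group stood apart. In 6 of the 9 fiber libraries (single fibers 2 and 3, 5-fiber pool 2 and all pools of 20) Il6ra lay within the background, and in 0 of 3 whole muscle libraries, so its level there could not be told from stray reads. In reads not divided by length, the shared chain outnumbered it by 364 to 1 in single fiber 2 and by 3.32 to 1 in 20-fiber pool 2, against 90.7, 35.0 and 22.3 to 1 in whole muscle.

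The oncostatin M receptor Osmr was set apart by 2 libraries. Osmr (ENSMUSG00000022146, chromosome 15, 6813577 to 6874969, minus strand) was at 119.6, 72.9 and 2.96 CPM in 5-fiber pools 1 to 3, from 1302, 454 and 45 reads. It was at 13.9, 2.01 and 8.11 CPM in single fibers, at 3.76, 10.7 and 12.7 CPM in the pools of 20 and at 8.36, 5.64 and 10.6 CPM in whole muscle. Pools 1 and 2 lay above every other library and pool 3 below every whole muscle library. In the same 2 pools the read ratio of Osmr to Il6st, which needs no scaling between libraries, was 0.923 and 0.942, against 0.0320 in pool 3 and 0.0653 to 0.159 in whole muscle. Osmr made up 44.2% and 43.9% of the summed level per kilobase of the 3 receptor chains there, against 2.83% in pool 3 and 5.46% to 12.1% in whole muscle. The log2 fold change of the pools of 5 over whole muscle was 2.94 (SE 1.06, adjusted p = 0.127), and it passed without pool 3 (3.59, adjusted p = 1.38e-05). Without the 5 libraries of high background the contrast of isolated fibers with whole muscle was -0.35 for Osmr (adjusted p = 0.706), so its direction there rested on these libraries.

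Markers of several other cell types, and the background, moved with Osmr across the pools of 5. The 12 endothelial markers summed to 709 and 526 CPM in 5-fiber pools 1 and 2 and to 82.7 CPM in pool 3, the 8 pericyte and smooth muscle markers to 407, 264 and 37.1 CPM, and the 10 fibroblast markers to 479, 618 and 59.9 CPM. The share of background receptor genes with a read was 58.0%, 68.9% and 4.58% in pools 1 to 3. Whole muscle had 907 to 1081 CPM of endothelial and 329 to 345 CPM of pericyte markers, with Osmr at 5.64 to 10.6 CPM. In 20-fiber pool 3 the endothelial markers summed to 563 CPM, and Osmr was at 12.7 CPM. In single fibers the endothelial sum was 2.40 to 8.51 CPM, with Pecam1, Cdh5, Tie1, Fabp4 and Flt1 at 0 in single fiber 2. Osmr had 31 to 166 reads in single fibers, above the background in all 3. No marker of these 3 lists was at 0 in a pool. The part of these cells and of the background in the Osmr level was not tested, and in bulk libraries fewer cells of a type cannot be told apart from less RNA per cell. In 20-fiber pools 1 and 2 Osmr lay within the background.

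Stat3, the transcription factor that the interleukin-6 family activates, was higher in single fibers and in pools of 5 than in whole muscle. Stat3 (ENSMUSG00000004040, chromosome 11, 100885098 to 100939540, minus strand) was at 214, 50.7 and 121 CPM in single fibers and at 263, 104 and 104 CPM in the pools of 5. It was at 61.4, 17.4 and 48.0 CPM in the pools of 20 and at 31.5, 38.5 and 33.0 CPM in whole muscle. Each single fiber and each pool of 5 lay above all whole muscle libraries, and the pools of 20 lay on both sides. The log2 fold change was 1.87 in single fibers (SE 0.49, adjusted p = 0.0228), 2.12 in pools of 5 (SE 0.45, adjusted p = 0.0315) and 0.59 in pools of 20 (SE 0.46, adjusted p = 0.316). Leaving out single fiber 1 or 3, or a whole muscle library, ended the call in single fibers (adjusted p = 0.0598 to 0.103), as did total reads (0.83, adjusted p = 0.206). In pools of 5 the same held for leaving out pool 1 or a whole muscle library (adjusted p = 0.0665 to 0.184) and for total reads (0.88, adjusted p = 0.0965). Relative to Il6st in the same library Stat3 needed no scaling: the read ratio was 0.607 to 2.03 in the 9 fiber libraries and 0.408 to 0.497 in whole muscle, with no overlap. Exons of Stat5a on the other strand cover 0.756% of the exon bases of Stat3.

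**Figure D3:**
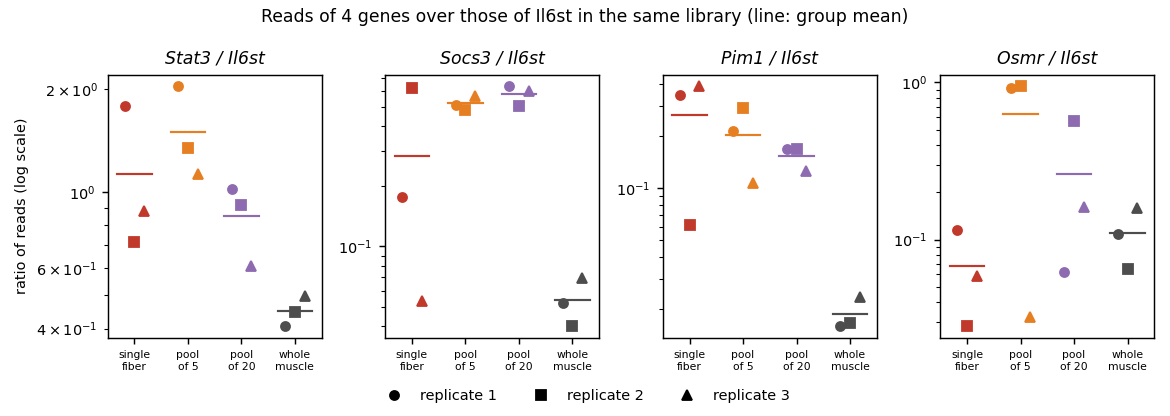
Reads of Stat3, Socs3, Pim1 and Osmr divided by those of Il6st in the same library (log axis), by group, with symbols for replicates and a line at the group mean. Stat3 and Pim1 have no fiber library at or below the whole muscle range, single fiber 3 lies within it for Socs3, and for Osmr 5-fiber pools 1 and 2 stand near 1.

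Socs3, the feedback inhibitor of gp130 signalling, was higher than in whole muscle in each of the 3 fiber groups. Socs3 (ENSMUSG00000053113, chromosome 11, 117966079 to 117970047, minus strand) was at 21.0, 43.9 and 7.31 CPM in single fibers, at 66.4, 37.4 and 52.5 CPM in the pools of 5 and at 38.0, 9.55 and 47.5 CPM in the pools of 20. Whole muscle was at 4.03, 3.46 and 4.59 CPM, below every fiber library. Single fiber 3 and 20-fiber pool 2 came closest to it. The log2 fold change was 2.48 in single fibers (SE 0.57, adjusted p = 0.0143), 3.62 in pools of 5 (SE 0.34, adjusted p = 0.00386) and 3.25 in pools of 20 (SE 0.47, adjusted p = 0.000135). The call in single fibers was lost without any one whole muscle library (adjusted p = 0.0685 to 0.0796) and with total reads (1.31, adjusted p = 0.0626), and that in pools of 5 without whole muscle 1 or 2 (adjusted p = 0.0561 and 0.0570). None of the 2838 different 50-base windows of its transcripts was found in another gene.

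RefSeq promoters (GRCm38.p6) were matched by symbol for 8 of the 9 genes, all but Socs2. The 250 bases before each start were searched for the letters TTCNNNGAA, the spaced palindrome that Stat proteins are known to bind, which reads alike on both strands, and for TGANTCA, the AP-1 motif, on both strands. Socs3 alone among them held the first motif, 154 bases before its RefSeq start, and 0 of the 8 held the second. The RefSeq starts of Socs3 (117969366), Osmr (6874313), Cish (107296659) and Pim1 (29490785 and 29493085) lie inside the gene spans given here. The motif and the printed stretch of Socs3 thus lie within its gene span, not upstream of it. Among all 32851 promoter windows of that length, the first motif is present in 7.02% and the second in 6.75%. A match is a description of letters and not evidence of binding. A stretch before the RefSeq start (the first one for Pim1) is printed for the genes with the largest changes, with the Stat motif in capitals. These are Socs3 (chr11:117969467-117969566, minus strand) and Pim1 (chr17:29490585-29490684, plus strand). Neither stretch touches an annotated exon.
Socs3: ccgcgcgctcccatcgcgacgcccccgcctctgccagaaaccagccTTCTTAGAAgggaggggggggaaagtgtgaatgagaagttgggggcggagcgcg
Pim1: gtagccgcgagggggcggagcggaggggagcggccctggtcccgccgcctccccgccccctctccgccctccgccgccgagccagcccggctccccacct

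Socs2, which restrains growth hormone signalling, was higher than whole muscle in each fiber group. Socs2 (ENSMUSG00000020027, chromosome 10, 95385362 to 95417180, minus strand) was at 48.6, 49.7 and 62.2 CPM in single fibers, at 64.6, 58.4 and 44.3 CPM in the pools of 5 and at 50.1, 21.5 and 75.9 CPM in the pools of 20. Whole muscle was at 15.6, 17.9 and 19.6 CPM, and the groups did not overlap. Its coefficient of variation was 14.1% in single fibers, where the other 8 genes had 31.5% to 116%. That order held on the TMM scale only: in RPM single fibers averaged 37.7 ± 15.1 for Socs2 and 12.9 ± 3.06 for Cish (SD, n = 3 each), a smaller relative spread for Cish. The log2 fold change over whole muscle was 1.57 in single fibers (SE 0.27, adjusted p = 0.00532), 1.60 in pools of 5 (SE 0.30, adjusted p = 0.0242) and 1.77 in pools of 20 (SE 0.46, adjusted p = 0.00530). With total reads the values were 0.54 (adjusted p = 0.195), 0.42 (adjusted p = 0.281) and 1.52 (adjusted p = 0.00354). The call in pools of 5 was lost without 5-fiber pool 1 or a single library of whole muscle (adjusted p = 0.0760 to 0.189), and that in pools of 20 without whole muscle 1 (adjusted p = 0.0650) and with no filter on low counts (adjusted p = 0.174).

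Cish, a Stat5-induced inhibitor, was higher than in whole muscle in both kinds of pool. Cish (ENSMUSG00000032578, chromosome 9, 107296026 to 107302784, plus strand) was at 25.2, 23.6 and 11.1 CPM in single fibers, at 29.7, 28.9 and 46.4 CPM in the pools of 5 and at 25.5, 8.87 and 39.8 CPM in the pools of 20. Whole muscle was at 12.9, 14.7 and 12.3 CPM. The pools of 5 lay above it without overlap, while single fiber 3 and 20-fiber pool 2 lay below it. The log2 fold change was 1.33 in pools of 5 (SE 0.29, adjusted p = 0.0361), 1.18 in pools of 20 (SE 0.41, adjusted p = 0.0304) and 0.52 in single fibers (SE 0.33, adjusted p = 0.253), and with total reads the value in single fibers was -0.60 (adjusted p = 0.126). In pools of 5 the call was lost with total reads (0.16, adjusted p = 0.716), without 5-fiber pool 1 (adjusted p = 0.0684) and without each library of whole muscle (adjusted p = 0.211 to 0.221). In pools of 20 it was lost without 20-fiber pool 3 (0.72, adjusted p = 0.130) and without each library of whole muscle (adjusted p = 0.0783 to 0.176). With no filter on low counts both calls were lost, at 1.22 in pools of 5 (adjusted p = 0.112) and 0.64 in pools of 20 (adjusted p = 0.405). Genes on the other strand, Gm17041 and Gm17040, cover 7.46% and 4.07% of its exon bases, and 9.35% of its 50-base windows occur in other genes, so its reads may be shared.

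Socs1, known as the inhibitor of interferon signalling, was the gene in which single fibers and pools of 20 parted. Socs1 (ENSMUSG00000038037, chromosome 16, 10782240 to 10785536, minus strand) was at 1.502, 0.844 and 3.12 CPM in single fibers, from 18, 13 and 35 reads, and at 9.11, 2.58 and 14.7 CPM in the pools of 20, from 80, 34 and 310 reads. It was at 8.36, 5.78 and 2.63 CPM in the pools of 5 and at 2.56, 2.78 and 4.12 CPM in whole muscle. Single fiber 3 lay above 20-fiber pool 2, so the groups overlapped. Pools of 20 rose over whole muscle by 1.75 (SE 0.48, adjusted p = 0.00769), while single fibers were at -0.80 (SE 0.63, adjusted p = 0.356) and pools of 5 at 0.76 (SE 0.52, adjusted p = 0.392). Compared directly, single fibers were lower than pools of 20, at -2.53 on the log2 scale (SE 0.78, adjusted p = 0.0217). Both calls were lost without 20-fiber pool 3, with an adjusted p = 0.107 for pools of 20 over whole muscle and 0.191 in the direct comparison. With total reads the value for pools of 20 over whole muscle was 1.45 (adjusted p = 0.0620), and with no filter 1.23 (adjusted p = 0.0584). In 20-fiber pool 2 Socs1 lay within the background. Endothelial markers summed to 2.40 to 8.51 CPM in single fibers, to 79.7, 85.7 and 563 CPM in 20-fiber pools 1 to 3 and to 907 to 1081 CPM in whole muscle. Their part in the difference was not tested.

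The balance within the Socs family differed between fibers and whole muscle. Per kilobase of exon, Socs3 made up 43.3%, 62.3% and 21.3% of the summed level of Socs1, Socs2, Socs3 and Cish in single fibers. Among pools of 5 its share was 61.7%, 50.6% and 58.7%, among pools of 20 it was 51.6%, 42.2% and 46.1%, and in whole muscle 23.6%, 18.9% and 22.8%. Single fiber 3, in which Socs2 held 55.1%, was the fiber library that lay within the whole muscle range. Cish held 12.4% to 23.4% in fibers and 27.4% to 36.3% in whole muscle, and Socs1 held 1.19% to 14.1% in fibers and 14.9% to 20.3% in whole muscle, both without overlap. These shares need no scaling between libraries. In reads, Socs3 stood at 0.661 to 2.24 for each read of Cish in the 9 fiber libraries and at 0.235 to 0.375 in whole muscle. Socs3 had the highest level per kilobase of the 9 genes in both kinds of pool, 18.02 ± 5.02 CPM per kb in pools of 5 and 10.97 ± 6.83 CPM per kb in pools of 20 (SD, n = 3 each), and ranked 5 of 9 in whole muscle at 1.39 ± 0.196 CPM per kb (n = 3).

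**Figure D4:**
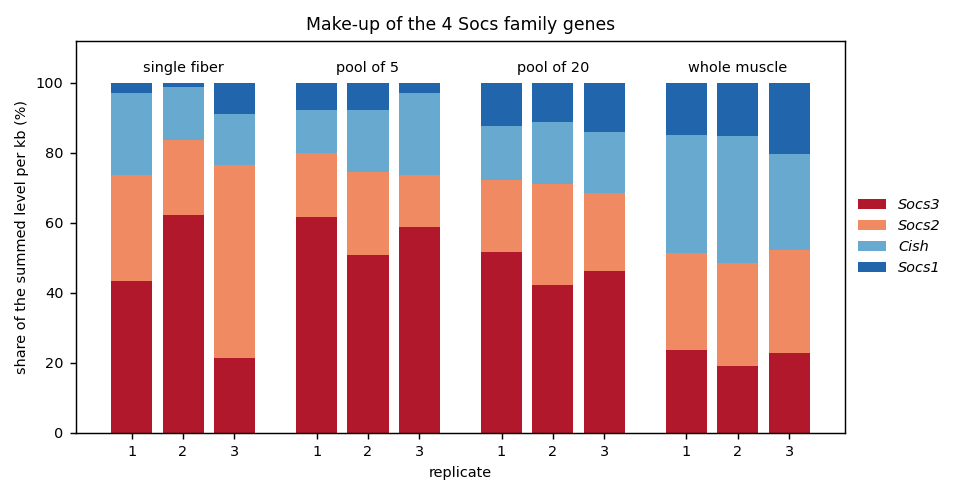
Share of Socs3, Socs2, Cish and Socs1 in their summed level per kilobase of exon, in percent, in each of the 12 libraries. Socs3 takes 42.2% or more in every fiber library except single fiber 3, which has 21.3%, and 18.9% to 23.6% in whole muscle.

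Pim1, the survival kinase gene that Stat3 and Stat5 are known to switch on, showed the largest change of the 9 genes in isolated fibers. Pim1 (ENSMUSG00000024014, chromosome 17, 29490753 to 29496112, plus strand) was at 41.6, 4.35 and 53.6 CPM in single fibers, at 28.0, 22.5 and 9.94 CPM in the pools of 5 and at 10.1, 3.19 and 9.98 CPM in the pools of 20. Whole muscle was at 1.24, 1.43 and 1.55 CPM, from 16, 40 and 46 reads. The groups did not overlap on this scale or in RPM, and single fiber 2 and 20-fiber pool 2 were the lowest fiber libraries. The log2 fold change was 4.56 in single fibers (SE 0.89, adjusted p = 0.00836), 3.77 in pools of 5 (SE 0.48, adjusted p = 0.00928) and 2.74 in pools of 20 (SE 0.48, adjusted p = 0.000351). Leaving out any one whole muscle library ended the call in single fibers (adjusted p = 0.0523 to 0.0531) and in pools of 5 (adjusted p = 0.0796 to 0.0896). For each read of Il6st there were 0.0613 to 0.390 reads of Pim1 in fibers and 0.0160 to 0.0234 in whole muscle. The antisense gene Gm26885 covers 14.5% of the exon bases of Pim1, and whether counting used strand is not given in the sources used here, so reads of the 2 genes cannot be told apart there. In 20-fiber pool 2 Pim1 lay within the background.

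**Figure D5:**
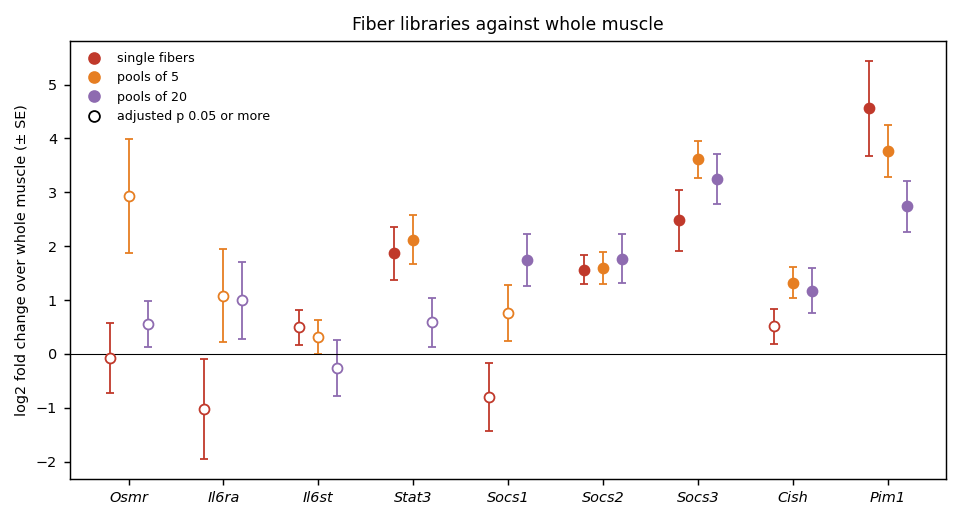
Log2 fold change over whole muscle with its SE for each gene in single fibers, pools of 5 and pools of 20, each fitted on its own 6 libraries; filled points have an adjusted p under 0.05. Socs2, Socs3 and Pim1 are filled in all 3 comparisons, and Il6st and Il6ra in none.

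Counted by group, 4 of 9 genes rose in single fibers over whole muscle, where 13.9% of all genes tested rose, and 0 fell. In pools of 5 there were 5 of 9, where 4.63% of all genes rose, and in pools of 20 there were 5 of 9, where 30.3% rose. The 3 comparisons share the whole muscle libraries. Single fibers and pools of 5 shared the calls of Stat3, Socs2, Socs3 and Pim1, the pools of 5 adding Cish, and the pools of 20 had Socs1, Socs2, Socs3, Cish and Pim1. Without one whole muscle library the number called was 1 in single fibers each time, 0 or 1 in pools of 5 and 3 or 4 in pools of 20, and without 5-fiber pool 1 it was 2 in pools of 5. Without 20-fiber pool 3 the number in pools of 20 was 3, and without 5-fiber pool 3 that in pools of 5 was 8. Calls over all genes moved too, and these counts are to be read against them. Without a whole muscle library they were 1540 to 1753 in single fibers, against 4716, and 7 to 46 in pools of 5, against 1307. In pools of 20 they were 7221 to 12607, against 7446, and 6605 without 20-fiber pool 3. In pools of 5 they were 7920 without 5-fiber pool 3 and 202 without 5-fiber pool 1. With total reads 1, 3 and 4 genes passed in single fibers, pools of 5 and pools of 20, and the 3 in pools of 5 included Il6st, which fell by 0.90 on the log2 scale (adjusted p = 0.0490). Of all called genes 41.2% were higher in single fibers, 52.3% in pools of 5 and 69.1% in pools of 20 with TMM, and 6.42%, 5.11% and 55.9% with total reads.

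Between the fiber groups few of the 9 genes differed beyond the spread. Single fibers against pools of 20, the comparison in which 27.5% of all genes tested were lower in single fibers, called Socs1 alone. Pim1 was at 1.80 (SE 0.70, adjusted p = 0.0549), Stat3 at 1.28 (SE 0.59, adjusted p = 0.1002) and Il6ra at -2.21 (SE 1.18, adjusted p = 0.151). Without single fiber 1 the number called was 3, without single fiber 2 or 20-fiber pool 1 it was 2 each, and Pim1 passed in each of these (adjusted p = 0.00398 to 0.0259). Single fibers against pools of 5 called 0 of 9 genes (edgeR and DESeq2), where 0.0157% of all genes passed. Osmr, at -3.12 (SE 1.19, adjusted p = 0.482), was the 1 gene with an unadjusted p under 0.05, and it passed without 5-fiber pool 3 (adjusted p = 0.0363). Pools of 5 against pools of 20 also called 0 of 9 (edgeR and DESeq2), where 0% of all genes passed edgeR's test. Of the 3 with an unadjusted p under 0.05, Osmr was at 2.68 (SE 1.05), Stat3 at 1.82 (SE 0.71) and Pim1 at 1.31 (SE 0.57), all with an adjusted p = 0.530. The group means of Pim1 were 33.2 ± 25.7 CPM in single fibers, 20.1 ± 9.26 in pools of 5 and 7.77 ± 3.97 in pools of 20 (SD, n = 3 each), and each group overlapped the next.

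The rest of the pathway, 92 other genes in 7 lists, did not move as one in isolated fibers: of 84 tested 7 rose and 9 fell, where 7.46% of all genes tested rose and 7.78% fell. Of 19 further Stat-responsive genes 6 rose and 1 fell, where 8 had an unadjusted p under 0.05, and the median was 0.85. Junb, an AP-1 subunit gene, was at 194 ± 147 CPM in fibers (SD, n = 9) and 11.4 ± 3.56 CPM in whole muscle (n = 3), and rose by 3.87 on the log2 scale (SE 0.68, adjusted p = 0.00120). The growth regulator Myc rose by 2.39 (adjusted p = 0.0295), the transcription factor gene Cebpb by 2.08 (adjusted p = 0.0322) and the vessel growth factor gene Vegfa by 1.84 (adjusted p = 0.0496). Myc differed between fiber groups: its mean was 43.0 CPM in single fibers, 35.8 in pools of 5 and 3.44 in pools of 20, with 3.28 CPM in whole muscle. Against whole muscle it was at 3.69 in single fibers (adjusted p = 0.0272), 3.35 in pools of 5 (adjusted p = 0.0186) and 0.37 in pools of 20 (adjusted p = 0.632), and single fibers were higher than pools of 20 by 3.28 (adjusted p = 0.00743). Igf1, the growth factor that growth hormone induces through Stat5b, fell by 2.48 (adjusted p = 0.000155), at 17.2 ± 4.28 CPM in fibers and 95.5 ± 8.37 CPM in whole muscle. Fibroblast and macrophage marker sums were also lower in fibers than in whole muscle, and their part in the fall of Igf1 was not tested. Several of the Stat-responsive genes also respond to other pathways, and the list does not separate them.

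Other receptor chains gave 0 higher and 5 lower of 24 tested with edgeR, where 11 had an unadjusted p under 0.05 in either direction and DESeq2 called 5; Ifnar1 was the one not described here. Ifngr1, the interferon gamma receptor chain, fell by 2.36 (SE 0.41, adjusted p = 0.00100), at 9.06 ± 4.86 CPM in fibers (n = 9) and 45.7 ± 1.72 CPM in whole muscle (n = 3). Il10rb, a chain of the interleukin-10 receptor, was at 1.66 ± 1.56 CPM in fibers and 5.38 ± 0.991 CPM in whole muscle (adjusted p = 0.0223). The common gamma chain Il2rg was at 1.09 ± 1.48 CPM in fibers, with 0 reads in all single fibers, and 2.58 ± 0.484 CPM in whole muscle (adjusted p = 0.0369). The leptin receptor Lepr passed in isolated fibers (adjusted p = 0.0385), but its fiber groups lay on both sides of whole muscle: the means were 0.0556 CPM in single fibers, 0.236 in pools of 5 and 3.90 in pools of 20, with 2.52 CPM in whole muscle. By group, Lepr was at 1.13 on the log2 scale in pools of 20 (adjusted p = 0.199) and passed, lower, in single fibers (adjusted p = 0.00759). Il10rb and Il2rg also passed in single fibers (adjusted p = 0.00533 and 0.00405), with an adjusted p = 0.386 and 0.895 in pools of 5 and 0.237 and 0.312 in pools of 20. Ghr, the growth hormone receptor, was at -0.54 (adjusted p = 0.491). Macrophage and endothelial marker sums were also lower in fibers than in whole muscle, and their part in the fall of Ifngr1, Il10rb and Il2rg was not tested. Among fiber libraries the macrophage sum was 280.5, 21.0 and 284.8 CPM in single fibers 1 to 3, and 36.3 to 72.5 CPM in the pools. In single fiber 3 that sum came from few markers, with 7 of 12 at 0. Mean Il10rb was 0.141 CPM in single fibers, 2.36 in pools of 5 and 2.47 in pools of 20, and was not compared with the background.

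Of 16 ligand genes 8 had enough reads for the test, and 0 rose and 2 fell in isolated fibers with edgeR (4 with an unadjusted p under 0.05, and 2 with DESeq2). Cardiotrophin 1, Ctf1, a gp130 ligand, fell by 2.05 (SE 0.42, adjusted p = 0.00376), at 2.73 ± 1.27 CPM in fibers (n = 9) and 10.8 ± 3.87 CPM in whole muscle (n = 3). Leptin, Lep, was at 0 to 2.50 CPM in fibers and 1.79 to 2.09 CPM in whole muscle (adjusted p = 0.0423), and adipocyte markers summed to 37.8 to 125 CPM in fibers and 918 to 1140 CPM in whole muscle. Interleukin-6, Il6, named here after its values had been seen, had 0 reads in all single fibers, 0.856 to 21.8 CPM in pools of 5 and 0.797 to 5.53 CPM in pools of 20, against 0.0357 to 0.135 CPM in whole muscle. These levels are a description. In isolated fibers Il6 did not pass (edgeR, adjusted p = 0.9999), but with 0 reads in all single fibers its SE was 73.6, so that contrast could not decide. It passed in pools of 5 over whole muscle, at 6.66 on the log2 scale (SE 1.30, adjusted p = 0.0265). Single fibers against pools of 20 also passed, at -8.23 (SE 1.80, adjusted p = 0.00727). Single fibers against pools of 5 did not (adjusted p = 0.210), and pools of 20 over whole muscle had no test.

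Jak kinases, other Stat genes and other inhibitors gave no call in isolated fibers with edgeR. Of 4 kinase genes 0 passed (1 with an unadjusted p under 0.05, and 2 with DESeq2), of 6 other Stat genes 0 (1 and 2) and of 13 other inhibitors 0 (1 and 1). Jak1, the main kinase bound to gp130, was at 826 ± 447 CPM in single fibers, 329 ± 174 in pools of 5, 126 ± 72.9 in pools of 20 and 131 ± 5.16 in whole muscle (SD, n = 3 each), and rose in single fibers by 2.65 (SE 0.51, adjusted p = 0.00803). In that comparison 2 of 4 kinase genes rose and 1 fell, where 19.8% of all genes tested fell. Named after their values had been seen, Jak2 was at 1.01 (SE 0.25, adjusted p = 0.0198) and Jak3, the partner of the common gamma chain in immune cells, at -2.57 (SE 0.66, adjusted p = 0.0216). Stat5b, which mediates growth hormone signals, was at -0.32 (adjusted p = 0.686) and the Stat inhibitor gene Pias2 at 0.51 (adjusted p = 0.474) in isolated fibers. Of 10 interferon targets the chemokine gene Cxcl10 rose by 4.54 (SE 1.03, adjusted p = 0.00728) and the ubiquitin-like Isg15 fell by 3.83 (SE 0.89, adjusted p = 0.00867).

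Across the 12 libraries the 9 genes did not follow a single pattern. On log2(CPM + 0.5), Pearson's r was 0.857 for Socs3 and Cish, 0.855 for Stat3 and Pim1, 0.842 for Socs2 and Pim1 and 0.794 for Osmr and Il6ra, and -0.266 for Il6ra and Il6st. These values are descriptions, since libraries of a group share preparation and the genes of a library share its depth and scaling. Among 5948 protein-coding genes averaging at least 10 CPM, those most like Pim1 were Rrad (0.9902), Synj2 (0.985) and Naf1 (0.984), and those most like Stat3 were Top1 (0.971), Cdkn1a (0.968) and Flnc (0.962). Those most like Socs3 were Clasp1 (0.942), Ciart (0.935) and Ier2 (0.932), and those most like Socs2 were Hsf2 (0.966), Ddx6 (0.955) and Crebbp (0.946). The closest to Osmr was Parp14 (0.943), to Socs1 Tcf7l2 (0.937), to Il6st Kbtbd2 (0.966), to Cish Usp2 (0.888) and to Il6ra Map4k4 (0.876).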

How the data were processed

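The 12 libraries hold raw whole-number counts of reads per Ensembl gene, deposited without normalization; per the submitters' processing notes HISAT2, SAMtools and featureCounts were used on GRCm38 (mm10), and versions, strand and multi-mapping settings are not given in the sources used here. Of 55573 identifiers 55480 matched GENCODE vM21, the source of symbols, coordinates and exon lengths. edgeR 4.0.16 in R 4.3.3 was used with TMM, filterByExpr, glmQLFit and glmQLFTest, with Benjamini-Hochberg adjustment over all genes tested and a threshold of 0.05. Isolated fibers were fitted on 12 libraries in 4 groups, each pair of groups on its own 6. The fits were tested on simulated counts drawn from a common mean profile with a fixed spread. These counts lacked the unequal spread and background of the fiber libraries, so the test could not judge the fits under those conditions. Alternatives were RLE, upper-quartile and total-read scaling, DESeq2 1.42.0, no filter, a replicate block, leaving out each library and a 2-group model. Sets of libraries were also left out, namely those of high background and the 2 fiber libraries closest to whole muscle. The members and lists were chosen with earlier results of these data known. Named genes are the 9 members, in each of 7 pathway lists the most abundant and up to 4 of the smallest adjusted p, in each cell type list the 2 most abundant in whole muscle, and the 3 genes most like each member. Marker lists for granulocytes and lymphocytes (2 of 8 tested lower in isolated fibers), pericytes (5 of 8), adipocytes (7 of 8) and satellite cells (1 of 8) gave 0 higher.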

Additional observations from a re-analysis of the deposited data

Results flagged for a closer look

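In 20-fiber pool 2 Il6st was at 18.9 CPM and Socs2 at 21.5 CPM, each far below the other 8 fiber libraries on the log2 scale by Dixon's criterion for 9 values, which flags about 1 in 20 groups by chance. That library had the smallest total, 4702823 reads, the largest TMM factor, 2.95, and reads on 97.3% of the 1506 receptor genes taken as background. Its plain RPM were 53.0 for Il6st and 60.4 for Socs2, within the range of the other fiber libraries. The part of scaling and background in these low values was not tested.

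For Socs1 the effect against whole muscle differed between single fibers (-0.80) and pools of 20 (1.75), and the direct test of that difference gave -2.53 on the log2 scale (SE 0.78, adjusted p = 0.0217, edgeR).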

How the results depend on the processing

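Of 597 values of 43 single-gene results under an alternative, 479 kept direction and side of the threshold, 63 lost a call, 25 gained one and 30 changed sign, 1 of these with an adjusted p under 0.05 (Il6st in pools of 5 with total reads). No cause of any change was tested. The number of genes called in isolated fibers (3) was 5 with upper-quartile factors, 5 with DESeq2 and 2 to 4 without each library. It was also 5 without single fiber 2 and 5-fiber pool 3, the 2 fiber libraries closest to whole muscle. That choice favors a difference, so the setting is no check on the calls, and 8587 of all genes passed under it, against 3370. The number called was 1 with total reads in single fibers (1 to 5 without each library, against 4). In pools of 5 (5 called) it was 3 with total reads, 2 with the replicate block and 0 to 8 without each library. Over all genes tested, 7 to 7920 passed there without each library. In pools of 20 (5 called) it was 2 with no filter and 3 to 6 without each library. For single fibers against pools of 20 (1 called) it was 3 with total reads, 2 with DESeq2, 2 with no filter, 0 with the replicate block and 1 to 3 without each library. For single fibers against pools of 5 (0 called) it was 1 with no filter and 0 to 1 without each library, and for pools of 5 against pools of 20 also 0 to 1.

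With total reads the sign turned in isolated fibers for Il6ra (-0.32), Il6st (-0.67) and Socs1 (-0.25), in single fibers for Il6st (-0.52) and Cish (-0.60), and in pools of 5 for Il6ra (-0.0927), Il6st (-0.90) and Socs1 (-0.44). With no filter it turned for Il6ra (-0.0052) and Il6st (-0.0055) in isolated fibers and Osmr (-0.28) and Il6ra (-0.11) in pools of 20. Without the high-background libraries, fitted as 2 groups, it turned in isolated fibers for Osmr (-0.35), Il6ra (-1.21) and Socs1 (-0.72). Leaving out single libraries took Il6ra in isolated fibers to between -0.43 and 0.48, Il6st in isolated fibers to between -0.0595 and 0.24, Osmr in single fibers to between -0.70 and 0.40, and in pools of 20 Il6ra to between -0.28 and 1.40 and Stat3 to between -0.0277 and 0.74.

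The replicate numbers did not pair the libraries: same-numbered libraries of different groups had correlations of their deviations from -0.40 to 0.46, over 0.1 in 3 of 18 pairs, and 6 of 12 libraries correlated best with their own number. With the replicate block 3 genes passed in isolated fibers, 4 in single fibers, 2 in pools of 5 (without Stat3, Socs2 and Cish, adjusted p = 0.0880 to 0.124) and 4 in pools of 20 (without Cish, adjusted p = 0.0872), and Il6ra (-0.14) and Il6st (-0.0144) turned sign in isolated fibers. Depth limits Il6ra, with 3 to 88 reads per library, and Socs1, with 13 to 310.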
